A study of Brachypodium distachyon with 45 samples.

Results

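A set of 103 annotated loci was expressed in the leaves of ABR4 and KOZ1 and nearly undetected in 4 of the 5 leaf groups of ABR8, the drought tolerant genotype of the 3 inbred Brachypodium distachyon lines compared. In the fifth ABR8 group, T1 drought, all 103 were listed above 0.2 FPKM. The loci were selected from the expression table itself. FPKM is a read count scaled for transcript length and library size. It had to be at most 0.2 in the ABR8 T0 control, T1 control, T2 control and T2 drought groups, and at least 2 in the same 4 groups of ABR4 and of KOZ1. The T1 drought groups were left out of the selection. Of 33852 loci in the table, 32837 carried a gene name, 12154 of these had at least 2 FPKM in all 8 ABR4 and KOZ1 groups, and the 103 selected loci, with 117 distinct gene names, were 0.847% of those 12154.

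Leaf RNA was sequenced from 3 plants in each of 15 groups. Plants of ABR4 (intermediate drought tolerance), ABR8 (tolerant) and KOZ1 (highly susceptible) were watered for 32 days after germination. Leaves were taken then (T0, control), after 4 further days (T1) and after 8 further days (T2), at T1 and T2 both from watered plants (control) and from plants without water (drought). Groups follow the sample titles. For 15 samples the separate treatment label disagreed with the title, namely all 12 ABR8 samples of T1 and T2, whose control and drought labels were exchanged, and the 3 KOZ1 T0 samples, labelled as not watered. An exchange of the T2 labels would leave the ABR8 selection as it is, because both T2 groups were used. An exchange at T1 would put the group left out, here called ABR8 T1 drought, under the control label.

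The deposited table gives each locus a single value in each group, which the authors derived from all 3 libraries together, and its 95% confidence limits. No value of a single plant was analysed. The limits stand for the error of each value, which rests on the depth and on how the authors' software modelled the spread between plants. Expressed as a fraction of FPKM, the standard error derived from the upper limit had a median between 0.308 and 0.338 in the 15 groups. Summed FPKM over all loci lay between 624700 and 759455 in 14 groups and was 479128 in KOZ1 T2 drought. In leaf tissue, fewer cells of a type and less RNA per cell cannot be told apart.

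Inbred lines of one species can differ in whether a gene is present, intact and transcribed. Brachypodium accessions are known to vary widely in gene content. RNA-seq reads mapped to a single reference genome give a value near 0 when a gene is not transcribed, when it is missing from the accession, and when its sequence differs so much that reads no longer map. Which of these holds for each locus was not tested. Long non-coding RNAs (lncRNAs) are transcripts without a recognised protein product, and they commonly vary more between accessions than protein-coding genes do.

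The selection did not hold in the group it had left out. In ABR8 T1 drought all 103 loci were above 0.2 FPKM, with a lowest value of 0.381, a median of 2.35 and a highest of 32.4. In the other 4 ABR8 groups the highest value of any of the loci lay between 0.163 and 0.194. The label "silent in ABR8" therefore fits 4 of the 5 ABR8 groups, and with T1 drought added to the rule 0 loci would be selected. The same holds for the corresponding 34 loci silent only in ABR4. All 34 were above 0.2 FPKM in ABR4 T1 drought, between 0.699 and 23.2, and 0 would be selected with that group added. The 23 loci silent only in KOZ1 stayed at or below 0.157 FPKM in KOZ1 T1 drought, and all 23 would still be selected. Whether the ABR8 and ABR4 T1 drought groups each hold a library of the other genotype was not tested. Results that rest on these 2 groups cannot be given without a library, since the values are pooled.

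**Figure D1:**
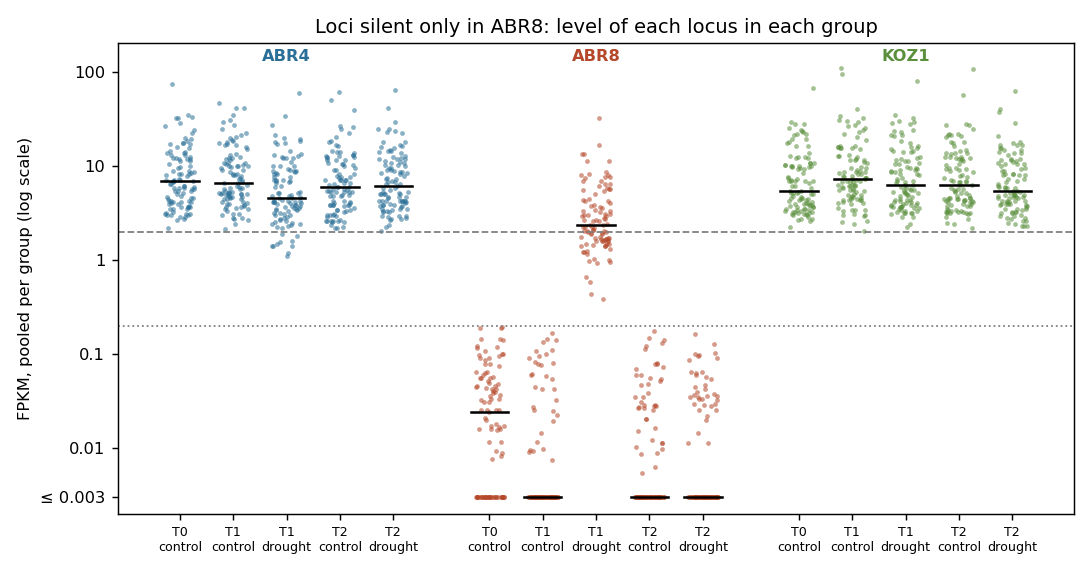
FPKM of each of the 103 selected loci (points, log axis) in the 15 groups, with the median of each group as a black bar, the selection limits of 0.2 (dotted) and 2 (dashed), and values under 0.003 drawn at 0.003. The ABR8 points lie below 0.2 in 4 groups, while in ABR8 T1 drought they run from 0.381 to 32.4.

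In the 4 ABR8 groups used for selection, 23 loci were listed at 0 throughout and 18 were listed at 0 in none. The number listed at 0 was 35 in the T0 control, 70 in the T1 control, 60 in the T2 control and 65 in T2 drought. In none of these 4 groups did any of the 103 loci have a lower confidence limit above 0. In ABR8 T1 drought, 62 of the 103 had a lower limit above 0. In ABR4 and KOZ1 the number with a lower limit above 0 was between 83 and 91 in every group.

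The loci were of low to moderate abundance in ABR4 and KOZ1. Their mean FPKM over the 8 ABR4 and KOZ1 groups used for selection ran from 2.68 to 74.1 with a median of 6.36, and 76 of the 103 had a mean under 10. The median over all 12154 loci at 2 FPKM or more in these groups was 13.2. By the same rule the loci silent only in ABR4 had a median of 7.398 and those silent only in KOZ1 of 5.95. The selection was thus 0.847% of the loci expressed in both other genotypes for ABR8, against 0.283% for ABR4 and 0.187% for KOZ1.

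A RefSeq gene on the same assembly could be matched to 75 of the 103 loci by position, with at least 50% of each covered by the other. Of the 75, 48 (64%) were annotated as protein coding, 23 (30.7%) as lncRNA, 3 as pseudogenes and 1 as another RNA type. Among the expressed loci from which the selection was drawn, 2.69% of the matched loci were lncRNAs, and among all named loci 5.79%. The lncRNA share was 26.3% for the loci silent only in ABR4 and 53.3% for those silent only in KOZ1. These shares are descriptions without a test. No RefSeq gene overlapped 8 of the 103 loci (7.77%), against 1.00% of the expressed loci.

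Locus identifiers of this genome run along each chromosome and were first numbered in steps of 10, which left numbers free for genes added later. Of the selected loci, 69 (67.0%) had an identifier that does not end in 0, against 21.0% of the expressed loci and 43.2% of all named loci. Neither the table nor the gene annotation used here describes what the genes encode, so no role is given for any of them. One locus adjoins a gene discussed in the study. Bradi1g26110 shares its deposited span with Bradi1g26120, which the study relates to brassinosteroid synthesis through an Arabidopsis ortholog. At T0, Bradi1g26120 had 4.16 FPKM in ABR4, 2.69 in KOZ1 and 0.404 in ABR8, and with a shared span the values of this pair are uncertain.

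Protein-coding loci had mean levels between 3.37 and 74.1 FPKM with a median of 7.33, and lncRNA loci between 3.27 and 41.9 with a median of 8.48. The 28 loci without a match were lower, with a median of 4.87. Listing at 0 in all 4 ABR8 groups was recorded for 7 of the 48 protein-coding loci, 4 of the 23 lncRNA loci and 11 of the 28 unmatched loci. The deposited span was shared with at least 1 other locus for 33 of the 103 (32.0%), against 21.8% of the expressed loci. The sources used here do not state whether reads were assigned by strand, so values of loci with a shared span are uncertain.

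The most abundant locus was Bradi4g21710 (XLOC_026142), a protein-coding gene on chromosome 4 from 25119839 to 25127391 that shares its span with other loci. Its FPKM in ABR4 was 73.7 at T0, 46.5 in the T1 control, 60.7 in the T2 control and 63.6 in T2 drought, and in KOZ1 it was 67.2, 110, 108 and 62.8 in the same groups. In ABR8 it was listed at 0 in all 4 of these groups and at 32.4 in T1 drought. The limits of this value were wide, from 0 to 77.3. At T0 another locus with the same span, Bradi4g21717, had 8.71 FPKM in ABR8, 0.009 in ABR4 and 0 in KOZ1. A further entry of Bradi4g21710, XLOC_026141, had 0.519 in ABR8, 14.4 in ABR4 and 14.9 in KOZ1. Both are named after their values were seen. How reads were divided among these entries was not tested, so the region as a whole cannot be called silent in ABR8.

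Bradi1g58746, an lncRNA on chromosome 1 from 57922730 to 57923391, was second with a mean of 41.9 FPKM. It was listed at 0 in 3 ABR8 groups and at 0.143 in the ABR8 T0 control. Next came Bradi3g60592, a protein-coding gene on chromosome 3 from 59215310 to 59218373, with a mean of 28.9. Its values ran from 23.0 to 34.7 in ABR4 and from 20.6 to 40.1 in KOZ1, and its highest ABR8 value among the 4 groups was 0.0945. The ranges of ABR4 and KOZ1 overlapped for all 3 loci.

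The other 7 of the 10 most abundant loci had means between 19.7 and 27.5 FPKM. They were the protein-coding Bradi5g24460, Bradi2g26576 and Bradi3g24674, the lncRNAs Bradi5g17565 and Bradi1g37963, and the unmatched Bradi3g18051 (XLOC_018416) and Bradi1g58953,Bradi1g58954,Bradi1g58956, the last a locus with 3 names. The control values of Bradi2g26576 lay close together, with 28.6, 29.3 and 26.8 FPKM in the ABR4 controls and 27.8, 30.1 and 27.6 in the KOZ1 controls. In ABR8 it did not exceed 0.0601 in the 4 groups.

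The order of the loci in ABR8 T1 drought followed their order in the other genotypes. Across the 103 loci the FPKM of ABR8 T1 drought and of the ABR4 T1 control had a Spearman rho of 0.94 and a Pearson r of 0.95 on the log2 scale. With the KOZ1 T1 control the values were 0.82 and 0.84. The points are loci measured in the same pooled libraries and are not independent, so no p is given.

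Relative to the ABR4 T1 control, the ABR8 T1 drought level had a median ratio of 0.365, with quartiles of 0.316 and 0.411 and an SD of 0.37 on the log2 scale over the loci. Relative to the KOZ1 T1 control the median ratio was 0.332 and the SD 0.63. The ratios to ABR4 ran from 0.132 to 0.697 and those to KOZ1 from 0.118 to 1.45. In ABR4 itself the T1 drought level was a median of 0.685 of the T1 control, lower for 101 of the 103 loci. In KOZ1 that median was 0.900, lower for 74. The 34 loci silent only in ABR4 had nearly the reverse pattern. Their level in ABR4 T1 drought was a median of 0.350 of the ABR8 T1 control, and their ABR8 T1 drought level was a median of 0.663 of its control, lower for 34 of 34.

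**Figure D2:**
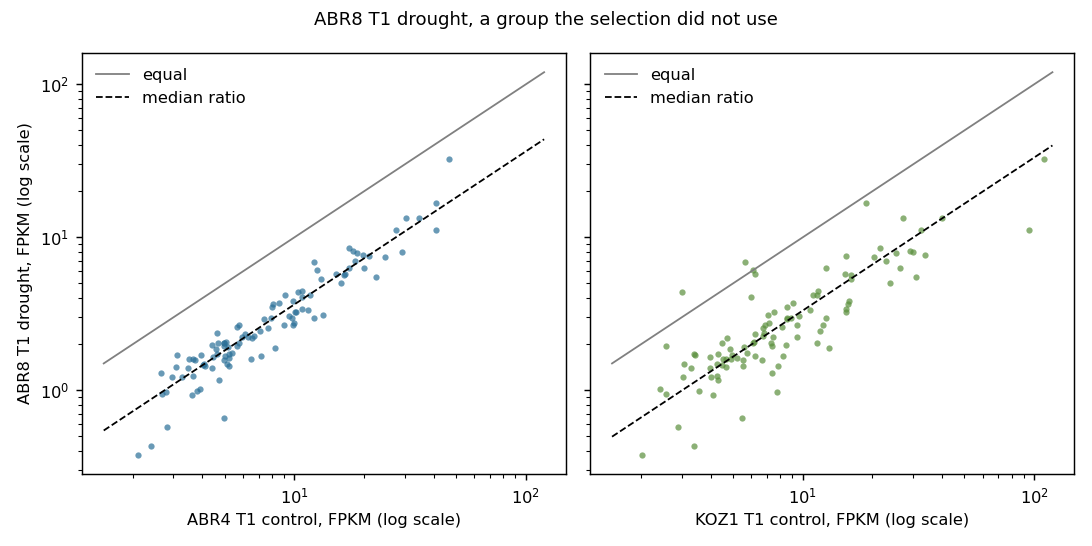
FPKM of the 103 loci in ABR8 T1 drought (vertical, log axis) against the ABR4 T1 control (left) and the KOZ1 T1 control (right, log axes), with lines for equal values and for the median ratios of 0.365 and 0.332. The points lie more tightly along the line for ABR4 than for KOZ1.

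Bradi5g24460, a protein-coding gene on chromosome 5 from 26282505 to 26287954, shows the difference between the 2 ratios. Its T1 control level was 41.1 FPKM in ABR4 and 18.8 in KOZ1, and its ABR8 T1 drought level was 16.8, above the 15.2 of KOZ1 T1 drought and below the 34.1 of ABR4 T1 drought. The other 3 loci with ABR8 above KOZ1 in T1 drought were Bradi1g28041, Bradi1g28050 and Bradi4g22017,Bradi4g22018, chosen for naming after their values were seen. All 4 had a T1 control level at least 2-fold higher in ABR4 than in KOZ1. That difference was found for 6 of the 103 loci. The others, Bradi1g53204 and Bradi5g25145, had ABR8 below KOZ1 in T1 drought and are also named after their values were seen. Besides Bradi5g24460, the highest ABR8 T1 drought levels were the 32.4 FPKM of Bradi4g21710 (XLOC_026142), 13.4 of Bradi3g60592, 13.4 of Bradi5g17565 and 11.2 of Bradi1g58746.

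The T1 drought groups were compared with a z-test of log FPKM, using standard errors from the deposited upper limits. Benjamini-Hochberg adjustment was made over all loci tested, and calls required an adjusted p no higher than 0.05 together with a 2-fold or larger change. Against ABR4 T1 drought, 0 of the 103 loci were called, 2 passed the unadjusted p, and 102 had a lower value in ABR8, with a median log2 difference of -0.92. Over all 26886 loci tested, 0.29% were called and 2.04% passed the unadjusted p. Against KOZ1 T1 drought, 4 of the 103 were called, all lower in ABR8, and the median log2 difference was -1.45. Of all loci tested in that comparison, 1.09% were called, 0.463% as lower. At the unadjusted p the number lower than KOZ1 was 38, with 2.24% of all loci. The median over all loci tested was 0.00 against ABR4 and 0.01 against KOZ1. The selected loci had been required to be lower in ABR8 than in both others in the remaining groups. Lower ABR8 values here were thus favoured by the selection, which was not so for all loci.

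The 4 loci called lower than in KOZ1 T1 drought were Bradi1g26840, Bradi3g10878 (XLOC_024698), Bradi5g02218 and Bradi1g58953,Bradi1g58954,Bradi1g58956. Their log2 differences were -2.29, -2.59, -1.93 and -2.44, in that order. Bradi5g02218 is named here after its value was seen.

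Of the 103 loci, 6 were called lower and 0 higher in KOZ1 T2 drought than in the KOZ1 T2 control. Of all 26286 loci tested, 8.34% were called, 4.57% as lower and 3.77% as higher. Among the 12154 expressed loci, 8.04% were called lower and 4.73% higher. These counts were not tested against the background. At the unadjusted p 10 were lower and 4 higher, with 3447 of all 26286 loci passing in either direction. With FPKM scaled to an equal sum 1 was called lower and 7 higher, with 4062 of all 26286 loci called. The direction of the calls thus turned with the scaling, which moved every locus of a group alike. The median log2 change of the selected loci was -0.06, with quartiles of -0.48 and 0.32, against 0.06 over all loci tested. The requirement of at least 2 FPKM in KOZ1 T2 drought keeps out loci that fell below that level, so steep falls of low loci could not appear here.

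Within KOZ1 and ABR4, the largest drought change of the selected loci was that of the lncRNA Bradi1g58746. Its FPKM in KOZ1 was 23.0 at T0, 95.02 in the T1 control, 21.3 in T1 drought, 56.5 in the T2 control and 5.18 in T2 drought. In ABR4 it was 34.8, 41.0, 27.4, 50.3 and 29.4 in the same groups. The KOZ1 values spread far more widely than those of ABR4, and both drought groups lay below every KOZ1 control. The log2 change in KOZ1 was -2.16 ± 0.52 (SE) at T1, with an adjusted p of 0.00919 by the z-test, and -3.45 ± 0.64 at T2, with an adjusted p of 4.7e-06. At T1 it was the only one of the 103 loci called in KOZ1, where 0.459% of all loci tested were called and the median log2 change of the selected loci was -0.15. This T1 call was lost in a test of the FPKM difference, with an adjusted p of 0.519.

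Bradi3g43670, a protein-coding gene on chromosome 3 from 44982722 to 44992908, fell in KOZ1 from 13.8 FPKM in the T2 control to 4.94 in T2 drought. Its other KOZ1 values were 9.14 at T0, 15.8 in the T1 control and 15.5 in T1 drought, so that T2 drought was the lowest of the 5 groups. In ABR4 its values were 8.56 at T0, 9.87 in the T1 control, 7.14 in T1 drought, 7.01 in the T2 control and 9.57 in T2 drought. The KOZ1 log2 change at T2 was -1.48 ± 0.42 (SE), with an adjusted p of 0.00758 by the z-test.

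Bradi1g26840, a protein-coding gene on chromosome 1 from 21927450 to 21929725, fell in KOZ1 from 21.9 to 8.13 FPKM at T2, while its T1 control and T1 drought values were 15.4 and 15.8. In ABR4 it had 12.9 in the T2 control and 9.02 in T2 drought. The lncRNA Bradi2g45352, on chromosome 2 from 45493475 to 45496618, fell from 12.2 to 4.66 in KOZ1 at T2 after 11.6 and 11.8 in the T1 control and T1 drought. In ABR4 its 5 values lay between 7.58 and 9.12.

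Bradi3g10878 (XLOC_024698), a protein-coding gene on chromosome 3 from 9141006 to 9144812, fell from 12.5 to 4.95 FPKM in KOZ1 at T2, to the level of ABR4, whose 5 values lay between 4.56 and 5.78. Bradi1g58000, a protein-coding gene on chromosome 1 from 57077087 to 57081833, fell from 9.36 to 3.73. It had 7.74 in the KOZ1 T1 control and 4.01 in KOZ1 T1 drought, a difference that did not pass the test. Both loci share a span with another locus. The log2 changes of these 4 loci lay between -1.43 and -1.33, with adjusted p between 0.0221 and 0.0406 by the z-test. The calls of 5 of the 6 loci, all but Bradi1g58746, were lost when every group was scaled to an equal FPKM sum. On the log2 scale that scaling raised KOZ1 T2 drought by 0.50 and lowered the KOZ1 T2 control by 0.15.

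**Figure D3:**
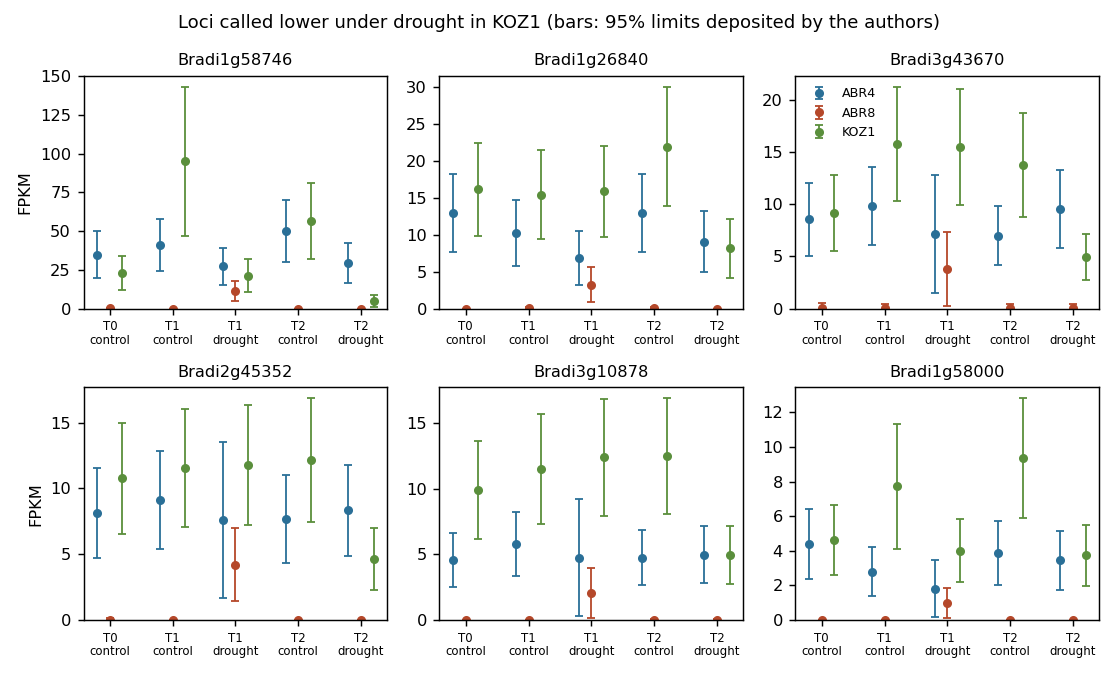
FPKM of the 6 loci called lower under drought in KOZ1, in the 5 groups of each genotype (ABR4 blue, ABR8 red, KOZ1 green), with the deposited 95% limits as bars. The KOZ1 T2 drought value lies below the KOZ1 T2 control for all 6, from 5.18 against 56.5 in Bradi1g58746 to 3.73 against 9.36 in Bradi1g58000.

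In ABR4, 0 of the 103 loci were called under drought at T1 and 0 at T2, and 0 passed the unadjusted p with a 2-fold change at either time. The selection required at least 2 FPKM in both ABR4 T2 groups, so steep falls of low loci at T2 could not appear here. Of all loci tested, 0.234% were called at T1 and 0.0698% at T2, and 1.66% and 0.951% passed the unadjusted p. For the selected loci the median log2 change was -0.55 at T1, with quartiles of -0.67 and -0.35, and 0.07 at T2. Over all loci tested the medians were 0.01 and 0.03. The T1 values thus lay below the controls for most loci, while the median standard error of a single log2 change was 0.73. Whether ABR4 T1 drought holds a library of ABR8 was not tested, and neither was the part of drought in this change. For the 23 loci silent only in KOZ1, ABR4 T1 drought was a median of 1.08 of its T1 control, lower for 8. Bradi1g53204 and Bradi4g21710 (XLOC_026142) were the 2 loci that lay above the control in ABR4 T1 drought, at 19.2 against 16.5 FPKM and 59.1 against 46.5. Bradi1g53204 was named after its values were seen.

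By gene type, the ABR4 T1 median log2 change was -0.51 for protein-coding loci, -0.58 for lncRNA loci and -0.62 for unmatched loci. At KOZ1 T2 the 3 medians were -0.14, -0.05 and 0.08. The 6 loci called there were 4 protein-coding and 2 lncRNA loci.

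**Figure D4:**
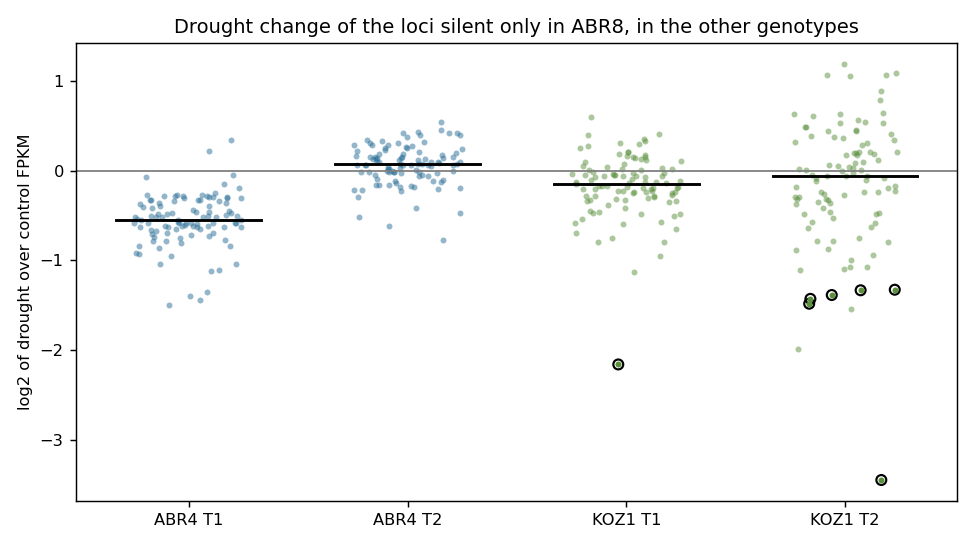
The log2 ratio of drought to control FPKM for each of the 103 loci (points) in ABR4 and KOZ1 at T1 and T2, with medians as black bars at -0.55, 0.07, -0.15 and -0.06 and called loci ringed. The KOZ1 T2 points are the most spread, and the ABR4 T1 points lie mostly below 0. Whether ABR4 T1 drought holds a library of ABR8 was not tested.

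The drought changes of KOZ1 and ABR4 were compared directly with a z-test between the log changes. At T1, 0 of the 103 loci differed, with 1 at the unadjusted p, and of all loci tested 0.151% were called and 1.72% passed the unadjusted p. At T2, 2 of the 103 differed, and 2.23% of all loci tested were called. The 2 were Bradi1g58746, whose KOZ1 change was lower than that of ABR4 by 2.67 ± 0.78 (SE) on the log2 scale, and Bradi3g43670, lower by 1.93 ± 0.59. Their adjusted p by the z-test were 0.0315 and 0.0476. Both calls were lost with FPKM scaled to an equal sum, with adjusted p of 0.132 and 0.263. For the other 4 loci called in KOZ1 at T2 the difference from ABR4 was not past the threshold. The selection required at least 2 FPKM in every group of the T2 comparison, which keeps out steep falls of low loci.

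Control levels of ABR4 and KOZ1 were compared with the limit that the selection had required at least 2 FPKM in both, which keeps out loci low in either, and the median standard error of a log2 difference was between 0.55 and 0.57. Between the T0 controls, 2.08% of all loci tested were called. Among the 12154 expressed loci, which meet the same minimum, 0.683% were called lower in KOZ1 and 0.732% higher. Of the 103 selected loci, 1 was called. It was Bradi5g24460, with 31.9 FPKM in ABR4 and 9.76 in KOZ1, a log2 difference of -1.71 ± 0.36 (SE) and an adjusted p of 0.000491 by the z-test. ABR4 stayed above KOZ1 in all 5 groups for this gene, between 31.9 and 41.3 against 9.76 and 21.1. Between the T1 controls 0 were called, with 6 at the unadjusted p, while of all loci tested 2.21% were called and 6.39% passed the unadjusted p. Of the expressed loci, 0.930% were called lower in KOZ1 and 0.765% higher.

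Between the T2 controls 1.64% of all loci were called, and of the expressed loci 0.716% were lower in KOZ1 and 0.510% higher. The 1 called among the 103 was Bradi3g10878 (XLOC_024698), with 4.75 FPKM in ABR4 and 12.5 in KOZ1. Its adjusted p of 0.0497 by the z-test was just inside the threshold, and the call was lost under either scaling of FPKM. The median log2 difference of KOZ1 from ABR4 over the selected loci was -0.13 at T0, 0.15 in the T1 controls and 0.12 in the T2 controls. For 11 of the 103 loci the 4 ABR4 groups used for selection all lay above the 4 KOZ1 groups, and for 10 the reverse held. Among the 12154 expressed loci these shares were 7.27% and 7.3%. The counts are descriptions over groups of differing treatment.

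The loci lay on all 5 chromosomes, with 39 on chromosome 1, 15 on chromosome 2, 20 on chromosome 3, 17 on chromosome 4 and 12 on chromosome 5. As shares of the expressed loci of each chromosome these were 1.03%, 0.541%, 0.716%, 0.980% and 1.12%. The share was thus lowest on chromosome 2. Positions are those of the v3.0 assembly, counted from 1.

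Of the 103 loci, 25 (24.3%) lay within 100 kb of another one, in 12 runs, and 10 (9.71%) were direct neighbours of another one in the order of named loci. Of the 34 loci silent only in ABR4, 0 lay within 100 kb of each other, and of the 23 silent only in KOZ1, 4 did (17.4%). Of the 12 runs, 4 were pairs of loci with a single deposited span, which hold 8 of the 25 loci and may not be separate measurements. Without them 17 loci in 8 runs remain. A longer list has more chances of neighbouring loci, and these shares were not tested. The longest run held 3 loci, Bradi1g00222, Bradi1g00260 and Bradi1g00284, within a stretch of 9 named loci at one end of chromosome 1 from 56562 to 164115.

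There were 5 pairs of direct neighbours, and 3 of them shared one deposited span. Bradi1g08142 was listed as 2 loci with the same span on chromosome 1 from 5732931 to 5735232, XLOC_000503 with a mean of 9.11 FPKM and XLOC_005384 with 11.8. Bradi1g28041 and Bradi1g28050 shared the span from 23198364 to 23208467 and had 12.1 and 11.8 FPKM at T0 in ABR4 against 3.91 and 3.40 in KOZ1. Bradi1g57720 and Bradi1g57725 shared the span from 56678642 to 56688068. In KOZ1 the first had 8.63 in the T2 control and 6.94 in T2 drought, while the second had 13.5 and 4.62. Neither of these T2 changes was called. The fourth pair with a single span was Bradi1g13367, listed as XLOC_000796 and XLOC_005722 with means of 4.24 and 3.53 FPKM, with another named locus between them in the order.

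The other 2 pairs had separate spans. Bradi2g28880, a protein-coding gene with a mean of 17.9 FPKM, and the lncRNA Bradi2g28886, with a mean of 3.50, lay on chromosome 2 between 28136498 and 28210645. Bradi5g19530 and Bradi5g19536, both protein coding, lay on chromosome 5 between 22681068 and 22713708 with means of 7.30 and 15.4. In KOZ1 T2 drought both had higher values than in the T2 control, 10.5 against 6.74 and 14.6 against 11.3, and neither difference passed the test.

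The named loci next to the selected ones were also low in ABR8 in part. Taking the nearest unselected named locus on each side gave 192 flanking loci, of which 147 could be tested against both ABR4 and KOZ1 at T0. Of these, 4 (2.72%) were called lower in ABR8 than in both, against 0.49% of the 25897 other named loci tested, and 2 (1.36%) were called higher than in both, against 0.529%. Where the span was apart from the selected locus, 2 of 118 were called lower and 2 higher. ABR8 was at most 1/2 of both other genotypes at 47 of the 147 (32.0%), against 7.38% of the other named loci. Where the flanking locus shared its span with a selected locus this held for 16 of 29 (55.2%), and where its span was apart, for 31 of 118 (26.3%). No minimum level was set for these counts, so loci near 0 FPKM in every genotype are included.

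The 4 flanking loci called lower in ABR8 were Bradi1g02060, Bradi4g22012, Bradi4g22590 (XLOC_029069) and Bradi1g28031,Bradi1g28041,Bradi1g28055, named after their values were seen. Bradi1g02060, a protein-coding gene beside the lncRNA Bradi1g02056, had 76.7 FPKM in ABR4, 64.3 in KOZ1 and 0.232 in ABR8 at T0. It missed the selection only by that ABR8 value. Bradi4g22012, beside Bradi4g22017,Bradi4g22018, had 5.73, 5.01 and 0.375. The other 2 shared both the span and a gene name with a selected locus, namely Bradi4g22590 (XLOC_026217) and Bradi1g28041. They are thus further entries under those names and may not be separate neighbours. In ABR4, KOZ1 and ABR8, in that order, Bradi4g22590 (XLOC_029069) had 35.2, 33.1 and 0.730 FPKM. Bradi1g28031,Bradi1g28041,Bradi1g28055 had 39.7, 30.02 and 4.08, so the name Bradi1g28041 was not silent in ABR8 in every entry.

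With neighbours counted by position, and only those of at least 1 FPKM in ABR4 and KOZ1 at T0, ABR8 was at most 1/2 of both at 26.2% of the loci just before and 32.5% of those just after a selected locus. At the fifth position the shares were 11.1% before and 6.98% after. Over all named loci other than the selected ones the share was 4.27%. Each position rests on between 33 and 47 loci, and neighbours with a shared span are included.

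**Figure D5:**
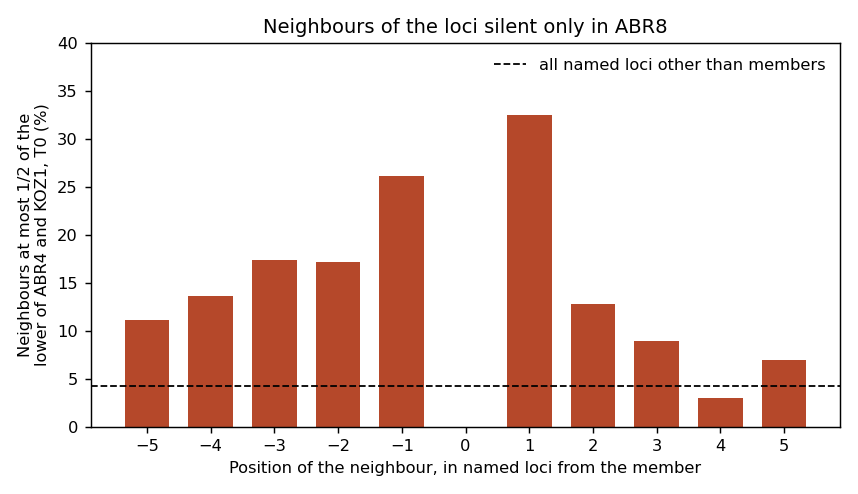
Share of neighbouring loci (percent, bars) whose ABR8 T0 value was at most 1/2 of the lower of ABR4 and KOZ1, by position in named loci from the selected locus, with the share over all other named loci as a dashed line at 4.27%. The bars are highest beside the selected loci, at 26.2% and 32.5%.

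At the edges of the selection the values were close. Just inside the ABR8 limit were Bradi3g17318, Bradi2g25374 and Bradi1g08142 (XLOC_005384), with highest ABR8 values of 0.194, 0.189 and 0.188 FPKM. Just outside were Bradi5g00330, Bradi2g48416,Bradi2g48418 and Bradi1g02060, with 0.205, 0.222 and 0.232. Just inside the limit for ABR4 and KOZ1 were Bradi5g13940, Bradi5g13722 and Bradi4g22590 (XLOC_026217), with lowest values of 2.02, 2.02 and 2.17. Just outside were Bradi2g19297, Bradi5g01153 and Bradi3g01723, with 1.92, 1.89 and 1.86.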

How the data were processed

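Leaf libraries of 15 groups were assigned to groups by their titles. According to the labels and the study's methods, the authors used Trim Galore 0.4.1 for trimming, TopHat2 2.1.1 and Bowtie2 2.2.9 for mapping to the v3.0 reference, and Cufflinks 2.2.1 and Cuffdiff for quantification. The authors deposited FPKM per locus and group, pooled over 3 libraries, with 95% limits. Library depths were not used here, and the error of a fold change rests on how Cuffdiff modelled the spread between plants.

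The standard error of a value was the distance to its upper limit divided by 1.96. Pairs of groups were compared by two-sided z-tests on ln FPKM, or on FPKM itself for loci at 0 in either group, with Benjamini-Hochberg adjustment over all loci tested (Python 3.11.15, statsmodels 0.14.6, scipy 1.17.1, pandas 2.3.3, numpy 2.4.6, matplotlib 3.10.9). The test was tried on simulated data. RefSeq genes were matched by position on chromosomes 1 to 5. Single loci were named where they were called in a drought comparison, among the 10 most abundant, next to another selected locus, among the 5 highest in ABR8 T1 drought, the called loci with the largest difference between ABR4 and KOZ1 at T0, or nearest to a limit of the selection. The loci and the lists were chosen with earlier results of these data known. Alternatives were the unadjusted p, limits without overlap, testing of FPKM differences, 4-fold, a minimum of 1 FPKM, 1 FPKM added before the fold, and 2 scalings. Marker genes of leaf and gene families were not checked, because the annotation used here holds no descriptions. No sequences were used.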

Additional observations from a re-analysis of the deposited data

Results flagged for a closer look

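At T2 the drought change differed between KOZ1 and ABR4 for 2 of the 103 selected loci by the z-test of the difference itself. Of all 22261 loci tested, 2.23% were called, so the share among the selected loci was no higher. The log2 difference of the changes was -2.67 ± 0.78 (SE) for the lncRNA Bradi1g58746, with an adjusted p of 0.0315, and -1.93 ± 0.59 for Bradi3g43670, with an adjusted p of 0.0476. The KOZ1 T2 drought group, on which both rest, had the lowest summed FPKM of the 15 groups, 479128. With FPKM scaled to the same sum the differences were -2.11 and -1.37, with adjusted p of 0.132 and 0.263. The part of the summed FPKM in these differences was not tested further.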

How the results depend on the processing

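Of 99 alternative settings of the counts, 74 gave a count within 1.5 times the reported one and 25 did not. This tally compares totals without their direction, and the 74 include settings where both counts were 0. They also include KOZ1 drought at T2 scaled to the same sum. There 7 loci were called higher and 1 lower, against 0 higher and 6 lower as reported. Over all loci 4062 of 26286 were called with that scaling, against 2192 without it. Of 116 alternatives for single called loci, 92 kept the call, 24 lost it and 0 reversed the direction. At the unadjusted p, 14 selected loci passed for drought in KOZ1 at T2 (4 higher, 10 lower), with 3447 of all 26286 loci tested. For the difference of drought changes 7 passed at T2, with 1904 of 22261, and 1 at T1, with 388 of 22541. Between KOZ1 and ABR4 the counts were 4, 6 and 4 in the T0, T1 and T2 controls. Over all loci they were 1840 of 27020, 1697 of 26566 and 1429 of 26287. For ABR8 T1 drought 2 passed against ABR4, with 548 of 26886, and 38 against KOZ1, with 1516 of 27416. Of the flanking loci 8 (5.44%) were lower in ABR8, against 1.51% of the other named loci. By 95% limits that do not overlap, the counts were 1 and 2 between KOZ1 and ABR4 in the T1 and T2 controls. Over all loci they were 1214 of 26566 and 1009 of 26287. For ABR8 against KOZ1 T1 drought the count was 26, with 1013 of 27416 over all loci. Among the flanking loci it was 11 (7.48%), against 1.08% of the other named loci. The test on the difference in FPKM left 0 for KOZ1 drought at T1 and 0 between the T2 controls. Over all loci it called 55 of 26377 and 350 of 26287. At 4-fold, 1 locus was left for KOZ1 drought at T2, 0 between the T0 controls, 0 between the T2 controls and 1 for the difference of drought changes at T2. Over all loci the 4-fold counts were 1031, 415, 307 and 406, in that order. With FPKM scaled to a common median, 0 were called between the T2 controls, with 430 of 26287 over all loci. With the same sum, 0 were called there and 0 for the difference of drought changes at T2. Over all loci that scaling gave 431 of 26287 and 644 of 22261.

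The common median moved groups by at most 0.08 on the log2 scale and the same sum by up to 0.50. A minimum of 1 FPKM in ABR4 and KOZ1 selected 161 loci, a minimum of 5 selected 42, and adding the T1 drought groups selected 0. The causes of these shifts were not tested. No paired analysis was possible because the columns are pooled over the libraries of a group and carry no replicate numbers, and for the same reason no library could be left out. The 95% limits of low values bound the precision, and in ABR4 and KOZ1 the lower limit was above 0 for 83 to 91 of the 103 loci per group.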
